A study of Mus musculus with 16 samples.

Results

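The nuclear genes that encode subunits of the mitochondrial respiratory chain and of the ATP synthase were followed in activated naive CD4+ T cells with and without the transcription factor Dec1. Members were taken by name. They were genes whose probe carries a single symbol that begins with Nduf (Ndufaf assembly factors left out), Uqcr, Cox4, Cox5, Cox6, Cox7, Cox8 or Atp5, and the 4 genes Sdha, Sdhb, Sdhc and Sdhd. The rule found 82 genes of the 19938 with such a probe, and 81 of them passed the filter on dim probes. By role they were 6 core and 28 accessory subunits of complex I, 4 of complex II, 8 of complex III, 18 of complex IV and 17 of the ATP synthase. The remaining member, Ndufa4l2, is a paralog of Ndufa4 that was matched by name and is not an established subunit. Cox7c and Ndufb4 are not among the members, because their probes are shared with near-identical genes.

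Complexes I to IV pass electrons from NADH and succinate through ubiquinone and cytochrome c to oxygen. Complexes I, III and IV pump protons across the inner mitochondrial membrane as they do so, and the ATP synthase (complex V) uses the gradient to make ATP. Most subunits are encoded in the nucleus and imported, while a small core is encoded by mitochondrial DNA. T cell activation is accompanied by growth of the mitochondrial network, and CD28 is the costimulatory receptor that supports metabolic activity when the T cell receptor is engaged.

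The CD4+CD62LhiCD25- T cells came from spleen and lymph nodes of B6 mice and were cultured for 24 h with latex beads. All beads carried anti-CD3, an antibody that triggers the T cell receptor complex, and some also carried anti-CD28. The groups were Dec1 knockout cells with anti-CD3 plus anti-CD28 (KO_CD3CD28), Dec1 knockout cells with anti-CD3 (KO_CD3), wild-type cells with anti-CD3 plus anti-CD28 (WT_CD3CD28) and wild-type cells with anti-CD3 (WT_CD3), with 4 Affymetrix arrays each. No group was left without beads, and the labels give neither the knockout allele nor the age of the mice. Whether replicates were separate animals is not stated in the labels. Xist, the RNA that female cells express from the inactive X chromosome, had log2 signals of 11.35 and 11.36 on replicates 2 and 4 of KO_CD3CD28, 10.44 and 11.10 on those of KO_CD3, 11.24 on replicate 1 of WT_CD3CD28 and 10.95 on replicate 1 of WT_CD3. The other arrays had 5.09 to 5.80. Each group thus held samples of high and of low Xist, 2 of 4 high in knockout and 1 of 4 in wild-type groups, and same-numbered knockout and wild-type arrays differed in it for replicates 1, 2 and 4. Part of the spread that p-values measure may still be technical.

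The number of arrays limits the precision, and all values below are log2 signals. Bhlhe40, the gene that encodes Dec1, averaged 5.88 in KO_CD3CD28 and 9.51 in WT_CD3CD28, and 5.53 in KO_CD3 and 7.56 in WT_CD3. Of the 8 CD4 T cell markers measured, the mean level was 10.84 to 11.01 on KO_CD3CD28 arrays, 11.12 to 11.41 on KO_CD3 arrays, 10.70 to 11.13 on WT_CD3CD28 arrays and 11.41 to 11.66 on WT_CD3 arrays. Several arrays stood apart in the members. The mean deviation of the 81 members from their own mean over 16 arrays was -0.419 on KO_CD3 replicate 2, which was the lowest of its group in 49 members. It was -0.146 on WT_CD3CD28 replicate 4, the lowest of its group in 55 members, while the other 3 arrays of that group had 0.144, 0.188 and 0.188. Results that rest on these arrays are also given without them.

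**Figure D1:**
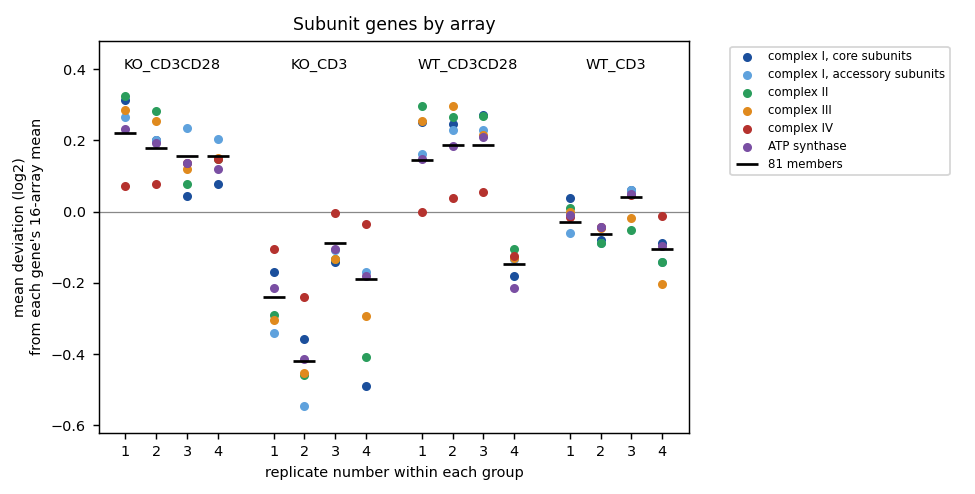
Mean deviation of the subunit genes from each gene's mean over 16 arrays (log2, vertical axis) for each array, by group and replicate number. Dots are complexes and black bars are all 81 members. The KO_CD3CD28 arrays lie between 0.157 and 0.222 and the KO_CD3 arrays between -0.419 and -0.088, while WT_CD3CD28 replicate 4 lies at -0.146 below the other arrays of its group.

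The first comparison asked what CD28 engagement adds in knockout cells. Subunit genes of all 5 complexes rose with anti-CD28: 49 of the 81 members tested rose and 1 fell (limma, Benjamini-Hochberg adjusted p under 0.05). Over all 16427 genes tested, 20.4% rose and 17.6% fell in the same comparison, 38% in all. The median member difference was 0.43 on the log2 scale, 1.34-fold, against a median of -0.063 over all genes, and 10 of the 81 differences were below 0, against 59% of all genes. With the filter at the 50th percentile, which leaves brighter genes, 50 of 77 members rose and 1 fell, against 29.7% and 21.2% of all genes. The medians were then 0.44 for the members and 0.009 for all genes. In 45 members all 4 KO_CD3CD28 arrays were above all 4 KO_CD3 arrays, and in 1 member all were below (18.7% and 16.2% of all genes). Of the 49 rises, 41 kept their call when any single array was left out. Without KO_CD3 replicate 2, 41 members rose and 1 fell, against 18.3% and 13.9% of all genes. With replicates 3 and 4 alone, 2 arrays a group, 16 rose and 0 fell, against 11.0% and 6.58% of all genes. Replicates 1 and 2 alone gave 64 and 4, against 25.6% and 21.1% of all genes. Since the arrays measure bulk RNA relative to the total, a difference in the number of cells that carry an mRNA and one in the mRNA per cell cannot be told apart.

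Markers of cell types also differed in this comparison. In knockout cells 3 of 8 CD4 T cell markers, 4 of 6 B cell markers, 5 of 9 myeloid and dendritic markers, 1 of 4 CD8 and NK markers and 1 of 3 erythroid and platelet markers fell, while 3 of 4 CD8 and NK markers rose. In wild-type cells the markers that fell numbered 5, 3, 3, 1 and 0 in the same order, and again 3 of 4 CD8 and NK markers rose. Over all genes, 20.4% rose and 17.6% fell in knockout cells, and 16% and 13% in wild-type cells. B cell markers averaged 5.88 to 6.06 on KO_CD3CD28 and 6.18 to 6.48 on KO_CD3 arrays, and 5.86 to 6.05 on WT_CD3CD28 and 6.31 to 6.40 on WT_CD3 arrays. Myeloid and dendritic markers averaged 5.57 to 5.84 on KO_CD3CD28 and 5.86 to 6.44 on KO_CD3 arrays, and 5.62 to 5.71 on WT_CD3CD28 and 5.86 to 5.95 on WT_CD3 arrays. CD8 and NK markers averaged 6.29 to 6.49 on KO_CD3CD28 and 6.18 to 6.32 on KO_CD3 arrays, and 6.26 to 6.33 on WT_CD3CD28 and 6.01 to 6.18 on WT_CD3 arrays. The part of these markers in the result was not tested.

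In wild-type cells the same comparison gave 20 members that rose and 2 that fell, 24.7% and 2.47% of the members against 16% and 13% of all genes, 29% in all. With the replicate number as a block, 26 rose and 5 fell, against 18.8% and 16.5% of all genes. The median member difference was 0.14, 1.1-fold, against -0.03 over all genes. With the filter at the 50th percentile, 23 of 77 members rose and 2 fell, against 23.2% and 18.1% of all genes. In 20 members the WT_CD3CD28 arrays were all above the WT_CD3 arrays and in 4 (Cox7a1, Cox7a2l, Ndufa6 and Ndufb11) all below (16.2% and 14.3% of all genes). This count depended on single arrays: 7 of the 20 rises kept their call when any single array was left out. The 7 were Ndufab1, Ndufa5, Ndufa9, Ndufa10, Ndufa12, Ndufs1 and Uqcrfs1. Members called numbered 9 without WT_CD3 replicate 4, 14 without WT_CD3 replicate 1 or 2, 12 without WT_CD3CD28 replicate 1 or 2 and 14 without WT_CD3CD28 replicate 3. In these fits 7 to 13 of the 81 members rose, against 13.4% to 15.6% of all genes. Without WT_CD3CD28 replicate 4, the array that stood apart, 25 members rose and 2 fell. Quantile normalization gave 12 of 81 that rose and 4 that fell with a median of 0.08, against 16.1% and 12.1% of all genes. Replicates 3 and 4 alone gave 2 and 1 with a median of 0.04, against 8.85% and 7.28% of all genes.

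Leaving out WT_CD3CD28 replicate 4 moved calls in both genotypes, since all groups share one estimate of the spread. In knockout cells 5 more members were called higher (adjusted p of 0.0041 to 0.0499): Atp5g1, Atp5g2, Cox4i1, Ndufb7 and Ndufv1. In wild-type cells 10 more were called higher (0.00127 to 0.0494), namely Atp5g1, Atp5o, Cox5a, Ndufa2, Ndufa8, Ndufc2, Ndufs5, Ndufs6, Ndufs8 and Sdhd, and Cox7a1 was called lower (0.0243). The wild-type calls lost were those of Atp5pb, Ndufb5, Ndufs4, Uqcrb and Uqcrc2 (0.054 to 0.0743) and the fall of Ndufa6 (0.0665). Without KO_CD3 replicate 2, 8 knockout rises were lost (0.0568 to 0.106): Atp5e, Atp5j2, Cox6b1, Ndufa2, Ndufb3, Ndufs3, Sdhc and Uqcrc1. In the same fit 4 more members were called higher in wild-type cells (0.0181 to 0.031): Cox5a, Ndufa4, Ndufc1 and Ndufc2.

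All 20 members that rose in wild-type cells also rose in knockout cells, which is 100% of the wild-type calls and 40.8% of the knockout calls. The difference was larger in knockout cells for 78 of the 81 members, against 50.3% of all genes. Tested as an interaction, this inequality of the CD28 effect was called for 0 members in limma, as for 0% of all genes. At an unadjusted p under 0.05 the interaction took in 16 members, all with the larger difference in knockout cells, against 3.22% of all genes in that direction, 2.06% in the other and 5.28% in both. The median interaction was 0.28 for the members and 0.001 for all genes. Without KO_CD3 replicate 2 these medians were 0.19 and 0.004, and without WT_CD3CD28 replicate 4 they were 0.19 and 0.013. The smallest p of a member was that of Ndufb2 (0.56, SE 0.18, unadjusted p = 0.0059, adjusted p = 0.905), followed by Ndufab1 (0.38, SE 0.13, unadjusted p = 0.00798, adjusted p = 0.905).

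**Figure D2:**
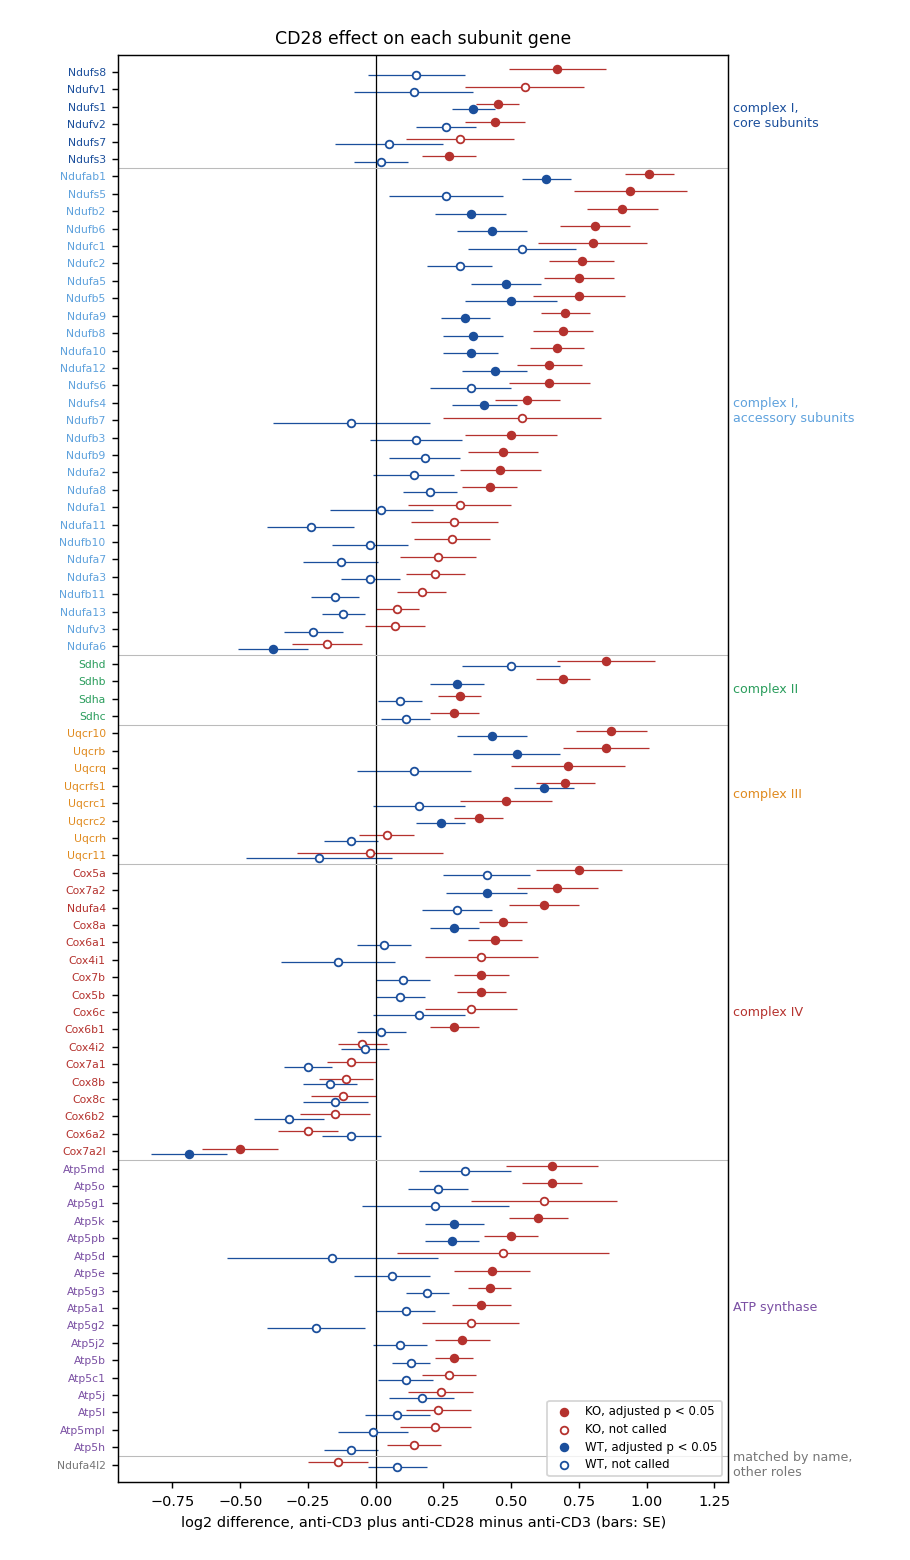
Log2 difference between anti-CD3 plus anti-CD28 and anti-CD3 (horizontal axis) for each of the 81 members tested, in knockout (red) and wild-type (blue) cells, grouped by complex. Points are limma estimates from 4 arrays a group, bars are standard errors, and filled points have an adjusted p under 0.05. The largest rise is Ndufab1, at 1.01 in knockout and 0.63 in wild-type cells, and Cox7a2l fell in both.

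Promoter windows of RefSeq (GRCm38.p6) were matched for 67 members, 72 windows of 300 bases that run from 250 before to 50 after the annotated start. They are shown for the member with the largest rise, for the single member that fell in both genotypes, and for one rising member each with a match to an NRF1 or an ETS motif, which are motifs known from promoters of respiratory chain genes. Each sequence is the 150 bases before the start, 5′ to 3′ on the strand of the gene, and capitals mark a motif.
Ndufab1, chr7:122101849-122101998, minus strand: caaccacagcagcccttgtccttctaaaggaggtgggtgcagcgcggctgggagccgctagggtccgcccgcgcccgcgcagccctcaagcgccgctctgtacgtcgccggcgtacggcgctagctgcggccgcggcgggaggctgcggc
Atp5k, chr5:108434400-108434549, minus strand: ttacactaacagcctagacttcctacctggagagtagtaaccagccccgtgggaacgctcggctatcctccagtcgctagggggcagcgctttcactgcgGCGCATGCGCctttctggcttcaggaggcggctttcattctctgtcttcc
Sdhd, chr9:50603850-50603999, minus strand: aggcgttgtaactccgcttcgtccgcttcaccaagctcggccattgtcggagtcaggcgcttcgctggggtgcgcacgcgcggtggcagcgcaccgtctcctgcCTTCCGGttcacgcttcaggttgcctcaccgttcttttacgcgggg
Cox7a2l, chr17:83514334-83514483, minus strand: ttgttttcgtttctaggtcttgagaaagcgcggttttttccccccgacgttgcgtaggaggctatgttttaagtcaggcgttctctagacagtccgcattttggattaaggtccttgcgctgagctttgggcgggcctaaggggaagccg
Motifs were searched as exact letters on both strands. The NRF1 motif GCGCATGCG, read as CGCATGCGC on the other strand, was in 8 of the 72 member windows, 11.1%, against 1.75% of the 32851 windows of all genes. Matches on both strands overlap by 8 bases in the window of Atp5k. The ETS motif CCGGAAG, read as CTTCCGG on the other strand, was in 17 member windows, 23.6% against 8.86%. The YY1 motif AAGATGGCG, read as CGCCATCTT, was in 7 member windows, 9.72% against 1.4%. The E-box CACGTG, a form that Dec1 is known to bind, was in 7 member windows, 9.72% against 7.15%. The YY1 matches were in Atp5j, Atp5j2, Ndufa9, Ndufc1, Ndufs4, Ndufs6 and Ndufs7, and the E-boxes in Atp5g1, Atp5g3, Atp5l, Atp5pb, Ndufa7 and Ndufv1. The window of Sdhb was among those with an ETS match. A match in these windows is a match of letters, and binding was not measured.

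Complex I oxidises NADH. Of its 6 core subunits measured, 4 rose with CD28 in knockout cells and 1 in wild-type cells, with median differences of 0.45 and 0.15. These are 66.7% against 20.4% of all genes in knockout cells and 16.7% against 16% in wild-type cells. Ndufs1, the largest iron-sulfur subunit of the NADH-oxidising module, had 10.52, 10.41, 10.59 and 10.54 on KO_CD3CD28 arrays and 10.00, 9.88, 10.17 and 10.19 on KO_CD3 arrays. It had 10.56, 10.47, 10.47 and 10.65 on WT_CD3CD28 arrays and 10.22, 10.12, 10.23 and 10.13 on WT_CD3 arrays. The arrays of the stimuli did not overlap in either genotype, and Ndufs1 rose by 0.45 (SE 0.08, adjusted p = 0.000304) in knockout and by 0.36 (SE 0.08, adjusted p = 0.00263) in wild-type cells. Ndufs8, an iron-sulfur subunit near the ubiquinone site, rose by 0.67 in knockout cells (adjusted p = 0.00726), and Ndufv2, an iron-sulfur subunit of the NADH module, rose by 0.44 (adjusted p = 0.00362). Ndufv1, which holds the flavin and the NADH site, had a difference of 0.55 in knockout cells (adjusted p = 0.0587) and of 0.14 in wild-type cells (adjusted p = 0.687). With the replicate number as a block, the knockout difference of Ndufv1 had an adjusted p = 0.00607, and it was also called without KO_CD3 replicate 1 (0.0273) or 3 (0.0465), KO_CD3CD28 replicate 3 (0.0426) or WT_CD3CD28 replicate 4 (0.0218). Ndufs7, which holds the last iron-sulfur cluster before ubiquinone, differed by 0.31 and 0.05 and was called in neither genotype. Ndufs3 rose by 0.27 in knockout cells (adjusted p = 0.0413), and its other probe, in a fit of single probes, had 0.25 (adjusted p = 0.0625). The call was lost without any 1 of 7 arrays (adjusted p of 0.0502 to 0.139), namely KO_CD3 replicates 2 and 4, KO_CD3CD28 replicates 1, 2 and 4, and WT_CD3 replicates 3 and 4.

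Of the 28 accessory subunits of complex I, 18 rose with CD28 in knockout cells and 10 rose and 1 fell in wild-type cells, with median differences of 0.55 and 0.23. The shares that rose were 64.3% against 20.4% of all genes in knockout cells and 35.7% against 16% in wild-type cells. Ndufab1, the mitochondrial acyl carrier protein, had 11.34, 11.25, 11.21 and 11.16 on KO_CD3CD28 arrays and 10.31, 10.11, 10.24 and 10.25 on KO_CD3 arrays. It had 11.27, 11.31, 11.09 and 11.15 on WT_CD3CD28 arrays and 10.72, 10.61, 10.64 and 10.33 on WT_CD3 arrays. The stimuli were far apart in both genotypes, the KO_CD3 arrays lay below every WT_CD3 array, and the arrays with anti-CD28 overlapped between the genotypes. Ndufab1 rose 2.02-fold in knockout (1.01, SE 0.09, adjusted p = 1.62e-07) and 1.55-fold in wild-type cells (0.63, SE 0.09, adjusted p = 4.49e-05). It also carries the growing acyl chain of mitochondrial fatty acid synthesis, a role apart from complex I.

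Other accessory subunits rose by less. Ndufa9, which lies at the junction of both arms of complex I, rose by 0.70 (SE 0.09, adjusted p = 1.05e-05) in knockout and by 0.33 (SE 0.09, adjusted p = 0.0109) in wild-type cells. Ndufa10, a subunit of the membrane arm, rose by 0.67 (adjusted p = 3.93e-05) and by 0.35 (adjusted p = 0.0115). Ndufa5, a subunit of the matrix arm, rose by 0.75 (adjusted p = 0.000168) and by 0.48 (adjusted p = 0.00831). Ndufb2, a small subunit of the membrane arm, had 8.59, 8.60, 8.77 and 8.64 on KO_CD3CD28 arrays and 7.58, 7.44, 8.08 and 7.84 on KO_CD3 arrays. It had 8.34, 8.49, 8.58 and 8.16 on WT_CD3CD28 arrays and 8.12, 7.86, 8.19 and 8.01 on WT_CD3 arrays. The knockout stimuli were apart, while in wild-type cells replicate 4 with anti-CD28 lay among the anti-CD3 arrays. Ndufb2 rose by 0.91 in knockout cells (SE 0.13, adjusted p = 2.22e-05). Its rise of 0.35 in wild-type cells had an adjusted p = 0.0475. That call was lost without any 1 of 10 arrays (adjusted p of 0.0524 to 0.144), namely all 4 of KO_CD3CD28, WT_CD3 replicates 1, 2 and 4, and WT_CD3CD28 replicates 1, 2 and 3.

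Ndufs5 (0.94), Ndufb6 (0.81), Ndufc1 (0.80), Ndufc2 (0.76) and Ndufb5 (0.75) were the other accessory subunits with knockout differences of 0.75 or more, and all 5 rose. Among the rises below that were Ndufb8 (0.69), Ndufs6 (0.64), Ndufa12 (0.64) and Ndufs4 (0.56). Subunits near 0 in knockout cells were Ndufa13 (0.08) and Ndufv3 (0.07). Ndufa6, an accessory subunit that binds the acyl carrier protein, had 7.88, 7.72, 8.24 and 8.10 on KO_CD3CD28 arrays and 7.95, 7.93, 8.39 and 8.39 on KO_CD3 arrays. In wild-type cells it had 7.82, 7.82, 8.11 and 7.91 with anti-CD3 plus anti-CD28 and 8.19, 8.13, 8.50 and 8.34 with anti-CD3. In both genotypes replicates 3 and 4 were high, and in wild-type cells the stimuli did not overlap. Ndufa6 fell by 0.38 on the log2 scale in wild-type cells (adjusted p = 0.044), a call that was lost without any of 6 arrays: the adjusted p was 0.131 without WT_CD3 replicate 3, 0.0978 without WT_CD3 replicate 4, 0.0531 without WT_CD3 replicate 1, and 0.111, 0.113 and 0.0665 without WT_CD3CD28 replicate 1, 2 or 4.

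**Figure D3:**
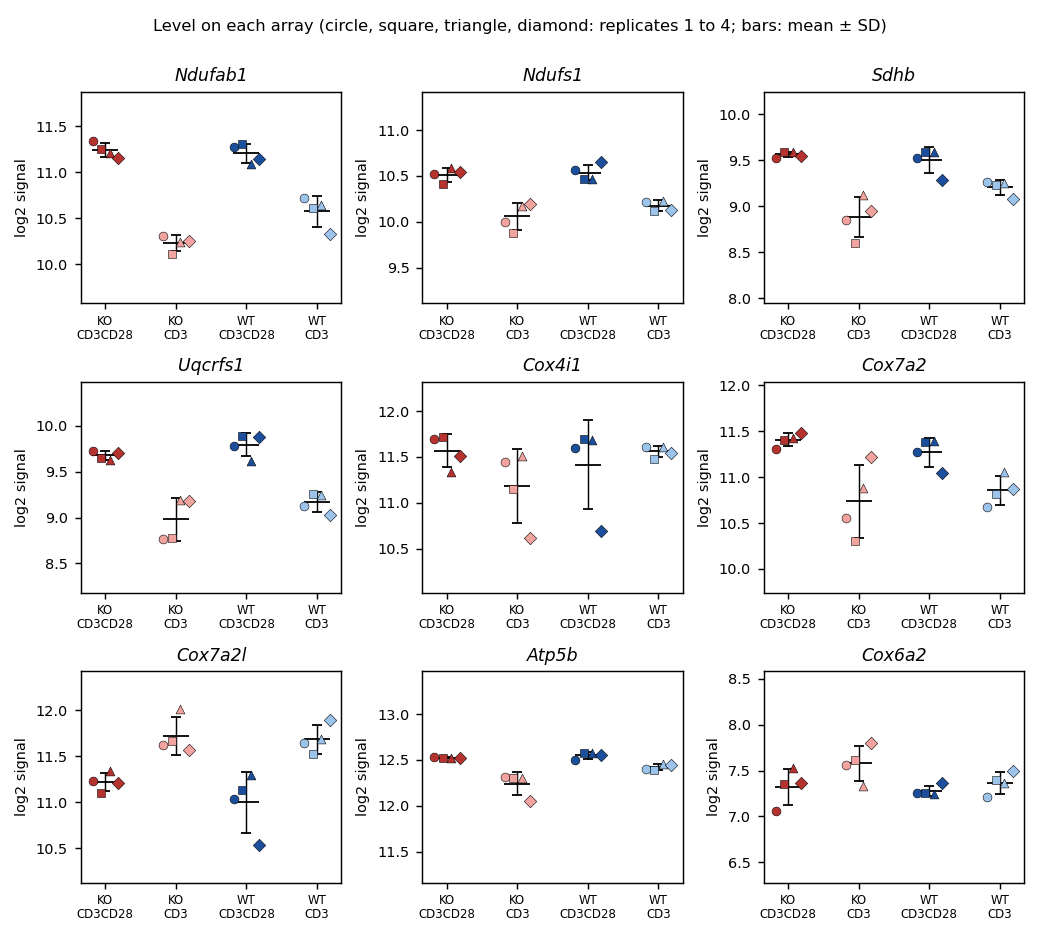
Log2 signal (vertical axes, each gene on its own scale of equal length) of 9 subunit genes on each array. Symbols are replicates 1 to 4 and bars are mean ± SD of 4 arrays. Ndufab1 averaged 11.24 in KO_CD3CD28, 10.23 in KO_CD3, 11.21 in WT_CD3CD28 and 10.57 in WT_CD3, while Cox7a2l was lower with anti-CD28 in both genotypes and Cox4i1 was low on replicate 4 of KO_CD3 and WT_CD3CD28.

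Complex II oxidises succinate and is also an enzyme of the tricarboxylic acid cycle. All 4 of its genes rose with CD28 in knockout cells and 1 of the 4 in wild-type cells, against 20.4% and 16% of all genes. Sdhb, the iron-sulfur subunit, had 9.53, 9.59, 9.59 and 9.55 on KO_CD3CD28 arrays and 8.85, 8.60, 9.12 and 8.95 on KO_CD3 arrays. It had 9.53, 9.59, 9.59 and 9.29 on WT_CD3CD28 arrays and 9.26, 9.23, 9.25 and 9.08 on WT_CD3 arrays. Both stimuli were apart in both genotypes, by a narrow gap in wild-type cells. Sdhb rose by 0.69 (SE 0.10, adjusted p = 3.85e-05) in knockout and by 0.30 (SE 0.10, adjusted p = 0.0346) in wild-type cells. The wild-type call was lost without WT_CD3 replicate 2 (adjusted p = 0.0561), 3 (0.0519) or 4 (0.11) and without WT_CD3CD28 replicate 1 (0.0763), 2 (0.1) or 3 (0.0856).

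The membrane anchor Sdhd, whose promoter window with an ETS match is given above, rose by 0.85 in knockout cells (SE 0.18, adjusted p = 0.00156). In wild-type cells Sdhd had 10.42, 10.42, 10.30 and 9.51 with anti-CD3 plus anti-CD28 and 9.87, 9.74, 9.58 and 9.45 with anti-CD3. Replicate 4 with anti-CD28 lay among the anti-CD3 arrays and the other 3 above them, and the difference of 0.50 had an adjusted p = 0.0512, or 0.0102 with the replicate block. It was also called without WT_CD3CD28 replicate 4 (0.00127), KO_CD3CD28 replicate 3 (0.0406) or WT_CD3 replicate 1 (0.047). Sdha, the flavoprotein, rose by 0.31 (adjusted p = 0.00599) and the anchor Sdhc by 0.29 (adjusted p = 0.0185) in knockout cells. The Sdhc call was lost without KO_CD3CD28 replicate 1 (adjusted p = 0.0685) and without KO_CD3 replicate 2 (0.0568) or 4 (0.0535).

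Complex III passes electrons from ubiquinol to cytochrome c. Of its 8 genes 6 rose with CD28 in knockout and 4 in wild-type cells, against 20.4% and 16% of all genes. Uqcrfs1, the Rieske iron-sulfur protein, had 9.73, 9.65, 9.63 and 9.70 on KO_CD3CD28 arrays and 8.77, 8.78, 9.19 and 9.18 on KO_CD3 arrays. It had 9.78, 9.89, 9.62 and 9.88 on WT_CD3CD28 arrays and 9.13, 9.26, 9.25 and 9.03 on WT_CD3 arrays. The stimuli were apart in both genotypes, and Uqcrfs1 rose by 0.70 (SE 0.11, adjusted p = 5.33e-05) in knockout and by 0.62 (SE 0.11, adjusted p = 0.000224) in wild-type cells. The core protein Uqcrc2 rose by 0.38 (adjusted p = 0.00226) in knockout and by 0.24 (adjusted p = 0.0436) in wild-type cells. The wild-type call was lost without any 1 of 10 arrays (adjusted p of 0.0511 to 0.103), namely all 8 wild-type arrays and KO_CD3CD28 replicates 2 and 4. The core protein Uqcrc1 rose by 0.48 in knockout cells (adjusted p = 0.0355) and had 0.16 in wild-type cells (adjusted p = 0.548). Its knockout call was lost without KO_CD3CD28 replicate 1 (adjusted p = 0.117) or 2 (0.0998) and without KO_CD3 replicate 2 (0.0664) or 4 (0.116).

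Among the small subunits of complex III, Uqcr10 rose by 0.87 (adjusted p = 4.1e-05) and Uqcrb by 0.85 (adjusted p = 0.00055) in knockout cells. In wild-type cells Uqcr10 rose by 0.43 (adjusted p = 0.016) and Uqcrb by 0.52 (adjusted p = 0.0235). These 2 calls were lost without WT_CD3 replicate 4 (adjusted p = 0.0631 and 0.0545), that of Uqcr10 also without WT_CD3CD28 replicate 1 (0.0612) or 2 (0.0568), and that of Uqcrb also without WT_CD3 replicate 1 (0.0699) or 2 (0.061) or WT_CD3CD28 replicate 4 (0.0593). Uqcrq rose by 0.71 in knockout cells, and Uqcrh, the hinge protein at the cytochrome c side, differed by 0.04. The probes of Uqcr11 disagreed: the one used differed by -0.02 in knockout cells and the other by 0.60 (adjusted p = 0.0441). Cyc1, the cytochrome c1 subunit that the naming rule does not take in, rose by 0.87 in knockout cells (adjusted p = 3.11e-05) and by 0.59 in wild-type cells (adjusted p = 0.00158).

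Complex IV passes electrons to oxygen. Of its 17 genes tested, 8 rose and 1 fell with CD28 in knockout cells, and 2 rose and 1 fell in wild-type cells. The wild-type share that rose, 11.8%, was below the 16% of all genes, with a median difference of 0.02, while the knockout share was 47.1% against 20.4%. Cox5a, a subunit on the matrix side, rose by 0.75 in knockout cells (adjusted p = 0.00104) and had 0.41 in wild-type cells (adjusted p = 0.0585, or 0.0354 with the replicate block). Cox7a2, the widely expressed isoform of subunit 7a, rose by 0.67 (adjusted p = 0.00189) and by 0.41 (adjusted p = 0.0463). Its wild-type call was lost without any 1 of 11 arrays (adjusted p of 0.0514 to 0.126), namely all 4 of KO_CD3CD28, KO_CD3 replicate 3, WT_CD3 replicates 1, 2 and 4, and WT_CD3CD28 replicates 1, 2 and 3. Cox8a, the widely expressed isoform of the smallest subunit, rose by 0.47 (adjusted p = 0.000419) and by 0.29 (adjusted p = 0.0195), and its wild-type call was lost without WT_CD3 replicate 1 (0.0688) or 4 (0.0572) or WT_CD3CD28 replicate 1 (0.0599).

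Cox7a2l, known as a factor that joins complexes III and IV in supercomplexes, went the other way. It had 11.23, 11.10, 11.34 and 11.21 on KO_CD3CD28 arrays and 11.62, 11.67, 12.02 and 11.57 on KO_CD3 arrays. It had 11.04, 11.13, 11.30 and 10.53 on WT_CD3CD28 arrays and 11.64, 11.52, 11.69 and 11.90 on WT_CD3 arrays. All arrays with anti-CD28 were below all arrays with anti-CD3 in each genotype, and replicate 4 of WT_CD3CD28 was lowest. Cox7a2l fell by 0.50 on the log2 scale in knockout cells (SE 0.14, adjusted p = 0.00994) and by 0.69 in wild-type cells (SE 0.14, adjusted p = 0.00127). When arrays were centred on their median, the knockout fall had an adjusted p = 0.0806.

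Other complex IV subunits rose in knockout cells with smaller wild-type differences: Cox6a1 (0.44, against 0.03), Cox5b (0.39, against 0.09), Cox7b (0.39, against 0.10) and Cox6b1 (0.29, against 0.02). The Cox6b1 call was lost without KO_CD3CD28 replicate 1 (adjusted p = 0.054) or 2 (0.0613) or KO_CD3 replicate 2 (0.0795), and the Cox5b call after quantile normalization (0.064). Ndufa4, named for complex I and now counted with complex IV, rose by 0.62 in knockout cells (adjusted p = 0.00143) and had 0.30 in wild-type cells (adjusted p = 0.103, or 0.031 without KO_CD3 replicate 2). Cox4i1, an early-assembling subunit, had 11.70, 11.72, 11.34 and 11.51 on KO_CD3CD28 arrays and 11.45, 11.15, 11.51 and 10.62 on KO_CD3 arrays. It had 11.60, 11.70, 11.68 and 10.69 on WT_CD3CD28 arrays and 11.61, 11.48, 11.61 and 11.54 on WT_CD3 arrays. The low values were replicate 4 of KO_CD3 and of WT_CD3CD28, the groups overlapped, and Cox4i1 was called in neither genotype (0.39, adjusted p = 0.151, and -0.14, adjusted p = 0.673). In knockout cells it was called without WT_CD3CD28 replicate 4 (0.0499) and with replicates 1 and 2 alone (0.0127).

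The isoforms known from other tissues had low or middle signals for their arrays. Cox7b2, known from testis, lay between the 6.9 and 10.3 percentiles of the probes of each array and was not tested. Cox4i2, Cox6a2, Cox6b2, Cox7a1, Cox8b and Cox8c lay between the 35.9 and 66.5 percentiles and were called in no comparison. Their differences with CD28 ran from -0.25 for Cox6a2, the heart and muscle isoform of subunit 6a, to -0.05 for Cox4i2 in knockout cells, and from -0.32 for Cox6b2, the testis isoform of subunit 6b, to -0.04 for Cox4i2 in wild-type cells. With the replicate block, Cox6a2 in knockout cells (adjusted p = 0.0421) and Cox6b2 (0.0225) and Cox7a1 (0.0135), the heart and muscle isoform of subunit 7a, in wild-type cells were called lower. Ndufa4l2, at the 30.4 to 41.7 percentiles, was also called in no comparison.

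The ATP synthase consists of a catalytic head (F1), a proton channel in the membrane (Fo) and the stalks that join them. Of its 17 genes 9 rose with CD28 in knockout and 2 in wild-type cells. These are 52.9% against 20.4% of all genes in knockout cells and 11.8% against 16% in wild-type cells, with median differences of 0.39 and 0.11. Atp5b, the catalytic beta subunit, had 12.53, 12.52, 12.52 and 12.52 on KO_CD3CD28 arrays and 12.31, 12.30, 12.30 and 12.05 on KO_CD3 arrays. It had 12.50, 12.58, 12.58 and 12.55 on WT_CD3CD28 arrays and 12.40, 12.39, 12.46 and 12.44 on WT_CD3 arrays. The groups were apart in both genotypes by small gaps, and Atp5b rose by 0.29 in knockout cells (SE 0.07, adjusted p = 0.0041), with 0.13 in wild-type cells (adjusted p = 0.188). Atp5a1, the alpha subunit of the head, rose by 0.39 in knockout cells (adjusted p = 0.00815) and had 0.11 in wild-type cells.

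In the stalks and the membrane part, Atp5o, the subunit that ties the outer stalk to the head, rose by 0.65 in knockout cells (adjusted p = 0.000101), and Atp5pb, subunit b of the outer stalk, by 0.50 (adjusted p = 0.000574). Atp5md, a small membrane subunit, rose by 0.65 (adjusted p = 0.00655), and its value on KO_CD3 replicate 4, 11.09, was as high as those of KO_CD3CD28 (11.01 to 11.08). Atp5k, subunit e, whose promoter window with an NRF1 match is given above, rose by 0.60 (SE 0.11, adjusted p = 0.000281) in knockout and by 0.29 (adjusted p = 0.0475) in wild-type cells. The other rise in wild-type cells was that of Atp5pb, 0.28 (adjusted p = 0.043). The wild-type call of Atp5k was lost without any 1 of 13 arrays (adjusted p of 0.0538 to 0.159), all but KO_CD3 replicates 2 and 4 and WT_CD3CD28 replicate 4. That of Atp5pb was lost without any 1 of 9 (0.0504 to 0.11), namely WT_CD3 replicates 1, 2 and 4, all 4 of WT_CD3CD28, and KO_CD3CD28 replicates 2 and 4.

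Atp5g1, Atp5g2 and Atp5g3 encode the same mature c subunit of the proton ring. Atp5g3 rose by 0.42 in knockout cells (SE 0.08, adjusted p = 0.000314) and had 0.19 in wild-type cells (adjusted p = 0.0749, or 0.0471 with the replicate block). Atp5g1 had 10.68, 10.63, 9.77 and 9.90 on KO_CD3CD28 arrays and 9.98, 9.67, 9.59 and 9.26 on KO_CD3 arrays. Its replicates 1 and 2 with anti-CD28 were high and replicates 3 and 4 lay within the range of KO_CD3, and the difference of 0.62 had an adjusted p = 0.0812, or 0.012 with the replicate block, 0.0402 without KO_CD3CD28 replicate 3 and 0.0152 without WT_CD3CD28 replicate 4. Another probe of Atp5g1 had 0.55 (adjusted p = 0.0369), and Atp5g2 differed by 0.35 (adjusted p = 0.127), with all KO_CD3CD28 arrays above all KO_CD3 arrays. Atp5g2 was called without WT_CD3CD28 replicate 4 (adjusted p = 0.0041), in a fit of the knockout groups alone (0.0213), with array weights (0.0262) and with replicates 1 and 2 alone (0.00283). Their mature protein is identical, and whether the probes cross-hybridise was not tested.

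Atp5d, the delta subunit of the central stalk, varied most within groups. It had 11.31, 11.23, 9.84 and 9.87 on KO_CD3CD28 arrays and 10.71, 10.40, 10.12 and 9.12 on KO_CD3 arrays. It had 11.29, 11.13, 11.21 and 9.73 on WT_CD3CD28 arrays and 11.02, 11.03, 11.10 and 10.87 on WT_CD3 arrays. The low arrays were replicates 3 and 4 of KO_CD3CD28, replicate 4 of KO_CD3 and replicate 4 of WT_CD3CD28. The complex I subunit Ndufb7, picked after its values were seen, had the same low arrays, with 10.57, 10.37, 9.68 and 9.76 on KO_CD3CD28 arrays, 10.02, 9.67, 9.52 and 9.01 on KO_CD3 arrays, and 10.48, 10.40, 10.46 and 9.03 on WT_CD3CD28 arrays. Neither gene was called in any comparison with CD28 (Atp5d 0.47 and -0.16, Ndufb7 0.54 and -0.09), but without WT_CD3CD28 replicate 4 or with the replicate block the knockout difference of Ndufb7 was called (adjusted p = 0.0453 and 0.02).

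The genotypes were then compared within each stimulus. With anti-CD3 plus anti-CD28, 0 of the 81 members were called in limma, against 0% of all genes higher and 0.00609% lower in knockout cells. At an unadjusted p under 0.05, 2 members were higher in knockout cells, and 0 lower, against 2.75% and 0.572% of all genes, 3.32% in both directions. They were Cox8c (0.29, unadjusted p = 0.0313, adjusted p = 0.999) and Atp5h, subunit d of the outer stalk (0.21, unadjusted p = 0.0449, adjusted p = 0.999). In 1 member, Ndufb2 (0.26, adjusted p = 0.999), all 4 KO_CD3CD28 arrays were above all 4 WT_CD3CD28 arrays and in 0 all were below, against 2.11% and 0.645% of all genes. The median member difference was 0.10, and 64 of the 81 differences were above 0, as were 55.6% of those of all genes, with 44.4% below. Without WT_CD3CD28 replicate 4 the median was 0.03, or 0.00 relative to all genes, against 0.09 relative to all genes with it.

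With anti-CD3 alone, 0 members were called in limma, against 0.28% of all genes higher and 0.749% lower in knockout cells, 1.03% in all, and 74 of the 81 differences were below 0, against 44.6% of all genes. The median member difference was -0.17, against 0.033 over all genes. At an unadjusted p under 0.05, 23 members were lower in knockout cells and 0 higher, against 11.3% and 13% of all genes. In 12 members all 4 KO_CD3 arrays were below all 4 WT_CD3 arrays and in 1, Cox8c, all were above (6.63% and 8.06% of all genes). With the replicate number as a block, 10 members were lower and 0 higher, against 6.56% and 5.34% of all genes. With the number nested in genotype as a random block, which does not tie knockout to wild-type arrays, 0 of these 10 were called (adjusted p of 0.0541 to 0.182), against 0.645% of all genes lower and 0.201% higher. Replicates 1 and 2 alone gave 22 members lower, against 6.57% of all genes lower and 1.87% higher. Replicates 3 and 4 alone gave 0 members and a median of -0.06, against 0% of all genes in either direction. Members called numbered 3 without KO_CD3 replicate 3, 3 (Ndufa9, Ndufb8 and Ndufs8) without WT_CD3CD28 replicate 4, and 1 without KO_CD3 replicate 4 or WT_CD3 replicate 4. In the same order, 2.11%, 1.26%, 0.933% and 0.609% of all genes were lower, and 0.671%, 0.543%, 0.146% and 0.14% higher. The median was -0.10 without KO_CD3 replicate 2.

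Ndufa9, with the smallest p, had 10.50, 10.39, 10.84 and 10.59 on KO_CD3 arrays and 11.09, 10.89, 11.00 and 10.87 on WT_CD3 arrays. The genotypes did not overlap, by a narrow gap at KO_CD3 replicate 3, and the difference was -0.38 (SE 0.09, unadjusted p = 0.000591, adjusted p = 0.0519, or 0.0135 with the replicate block). Ndufa10 differed by -0.38 (unadjusted p = 0.00125, adjusted p = 0.0665, or 0.0166 with the block), Ndufab1 by -0.35 (adjusted p = 0.0666, or 0.0193 with the block) and Cox6a1 by -0.39 (adjusted p = 0.0684, or 0.0254 with the block). Sdhb differed by -0.33 (adjusted p = 0.0951, or 0.0399 with the block) and Atp5d by -0.92 (SE 0.39, adjusted p = 0.172, or 0.0304 with the block). With the nested random block the adjusted p was 0.0541 for Ndufa9, 0.0704 for Ndufa10, 0.0685 for Ndufab1, 0.0692 for Cox6a1, 0.0939 for Sdhb and 0.157 for Atp5d, and each of these calls was lost. All 4 complex II genes, all 8 of complex III, all 17 of the ATP synthase and all 6 core and 28 accessory genes of complex I had differences below 0, whereas 6 of the 17 complex IV genes were above 0. The 6 were Cox4i2, Cox6a2, Cox7a1, Cox8b, Cox8c and Cox7a2l. Myeloid markers, of which 12 of 13 are on the array and 9 passed the filter, averaged 5.86 to 6.44 on KO_CD3 arrays and 5.86 to 5.95 on WT_CD3 arrays, and their part in the result was not tested.

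**Figure D4:**
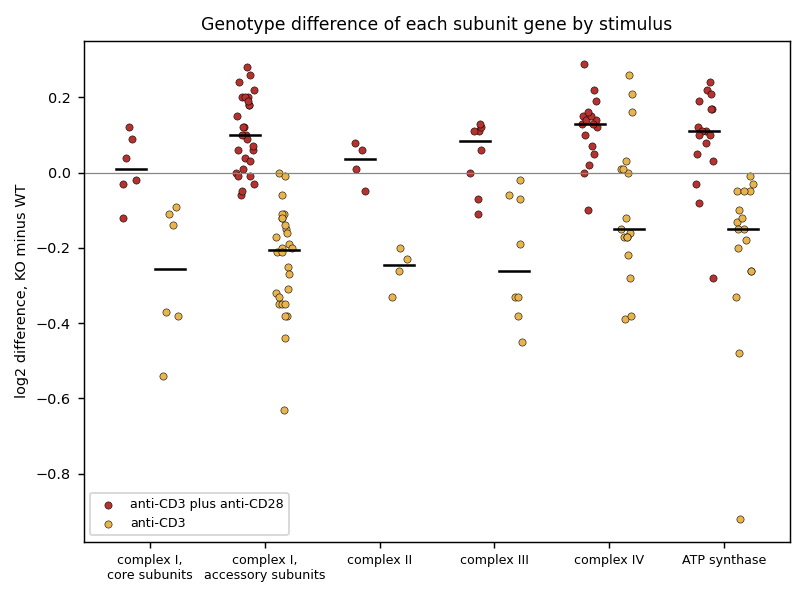
Log2 difference between knockout and wild-type cells (vertical axis) of each subunit gene, by complex, with anti-CD3 plus anti-CD28 (red) and with anti-CD3 (yellow). Points are genes and black bars are medians. With anti-CD3, 74 of the 81 members lie below 0, with a median of -0.17, and with anti-CD3 plus anti-CD28 64 lie above 0, with a median of 0.10, and 0 members were called in either.

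These comparisons share arrays: KO_CD3 enters both the CD28 effect in knockout cells and the genotype difference under anti-CD3, and the same KO_CD3 values stand in both. Among the groups, KO_CD3 had the widest spread, with a median SD of the members of 0.24, against 0.10 in KO_CD3CD28, 0.15 in WT_CD3CD28 and 0.11 in WT_CD3. The choice of scaling changed the size of the knockout rise. Arrays of KO_CD3 had medians of 6.87 to 6.97 and arrays of KO_CD3CD28 of 6.73 to 6.81, and with arrays centred on their medians the median over all genes was 0.071 in this comparison. The SD over all probes of an array was 2.12 to 2.19 in KO_CD3 and 2.23 to 2.27 in KO_CD3CD28. It was 2.17 to 2.25 in WT_CD3 and 2.22 to 2.28 in WT_CD3CD28, and its part in the results was not tested. Relative to all genes the median member difference in knockout cells was 0.49 with the values as deposited, 0.49 with centred arrays and 0.23 after quantile normalization. The numbers of members that rose and fell were 58 and 0 with centred arrays and 35 and 1 after quantile normalization. The 14 rises that quantile normalization lost (adjusted p of 0.0623 to 0.615) were those of Atp5e, Atp5j2, Cox5b, Cox6b1, Ndufa2, Ndufb3, Ndufb9, Ndufs3, Ndufv2, Sdha, Sdhc, Uqcrc1, Uqcrc2 and Uqcrq. In wild-type cells the median member difference relative to all genes was 0.17 as deposited, 0.17 with centred arrays and 0.05 after quantile normalization. There 9 rises were lost (0.05 to 0.169), those of Atp5k, Atp5pb, Cox7a2, Cox8a, Ndufb5, Ndufb6, Sdhb, Uqcrb and Uqcrc2.

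Genes that serve the respiratory chain without being its subunits were counted in lists chosen by function. Over all genes, 20.4% rose and 17.6% fell with CD28 in knockout cells, and 16% and 13% in wild-type cells. Of 43 assembly factors tested, 29 rose and 1 fell with CD28 in knockout cells and 22 rose and 3 fell in wild-type cells. The complex I assembly factors Ndufaf2 (1.25 in knockout, 0.72 in wild-type cells), Ndufaf4 (1.21 and 0.88) and Ndufaf6 (1.20 and 0.97) rose in both genotypes. The complex III assembly factor Uqcc3 fell by 0.45 in knockout and by 0.73 in wild-type cells on the log2 scale. Surf1, an assembly factor of complex IV, differed by -0.01 and -0.35 and was called in neither genotype, although with the replicate block it was called lower in wild-type cells (adjusted p = 0.0243).

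Of 25 electron carriers, ubiquinone synthesis genes and transport partners, 20 rose and 2 fell in knockout cells and 13 rose and 1 fell in wild-type cells. The shares of all genes were 20.4% and 17.6% in knockout and 16% and 13% in wild-type cells. Cytochrome c (Cycs) rose by 0.59 in knockout cells (adjusted p = 0.00392) and had 0.38 in wild-type cells (adjusted p = 0.0595, or 0.0168 with the replicate block). Atpif1, the inhibitor of ATP hydrolysis by the synthase, rose by 0.88 (adjusted p = 1.32e-05) and by 0.59 (adjusted p = 0.00083). The ubiquinone synthesis gene Coq7 rose by 1.33 and 0.90, and the outer membrane channel Vdac1 by 1.26 and 0.81. Slc25a4, an ADP/ATP carrier, rose by 0.99 and 0.53 and was the gene of this list called lower in knockout cells under anti-CD3 (-0.55, adjusted p = 0.0351). That call was lost without KO_CD3 replicate 1 (adjusted p = 0.0752) or 2 (0.107) and without WT_CD3 replicate 1 (0.0799), 2 (0.054) or 3 (0.144). Slc25a5, the other widely expressed carrier of the kind, rose by 0.39 in knockout cells (adjusted p = 0.00107) and by 0.24 in wild-type cells (adjusted p = 0.0352). The wild-type call was lost without WT_CD3CD28 replicate 2 (adjusted p = 0.0834), 3 (0.0769) or 4 (0.0659) and without WT_CD3 replicate 1 (0.0546), 2 (0.088) or 4 (0.0914).

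Of 18 genes of the tricarboxylic acid cycle and pyruvate dehydrogenase, 15 rose in knockout and 10 in wild-type cells, and 0 fell. Of all genes, 20.4% and 16% rose and 17.6% and 13% fell. Suclg2, a subunit of succinyl-CoA synthetase, rose by 1.54 and 1.14, the isocitrate dehydrogenase subunit Idh3a by 1.29 and 1.11, and fumarase (Fh1) by 1.16 and 0.74. Suclg2 (-0.40, adjusted p = 0.0447) and Fh1 (-0.45, adjusted p = 0.0421) were lower in knockout cells under anti-CD3. The Suclg2 call was lost without any 1 of 13 arrays (adjusted p of 0.0518 to 0.174), all but KO_CD3 replicate 3, KO_CD3CD28 replicate 1 and WT_CD3CD28 replicate 4. The Fh1 call was lost without any 1 of 11 (0.0504 to 0.17), all but KO_CD3 replicates 3 and 4, KO_CD3CD28 replicate 1, WT_CD3 replicate 4 and WT_CD3CD28 replicate 4.

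Of 21 genes of mitochondrial transcription and its regulators, 12 rose and 1 fell in knockout cells and 10 rose and 1 fell in wild-type cells. The shares of all genes were again 20.4% and 17.6% in knockout and 16% and 13% in wild-type cells. Myc, a transcription factor induced by T cell activation, rose by 1.10 (adjusted p = 3.83e-06) and 0.62 (adjusted p = 0.00146), and was lower in knockout cells under anti-CD3 (-0.60, adjusted p = 0.0421). That call was lost without any 1 of 11 arrays (adjusted p of 0.0504 to 0.141), all but KO_CD3CD28 replicates 1, 2 and 3, WT_CD3 replicate 4 and WT_CD3CD28 replicate 4. Tfb1m, the mitochondrial ribosomal RNA methyltransferase, rose by 1.20 and 1.02, and Tfam, which packs mitochondrial DNA, by 0.44 (adjusted p = 0.0157) and 0.40 (adjusted p = 0.0357). The Tfam calls were lost without KO_CD3 replicate 1 (adjusted p = 0.055) or 2 (0.064) in knockout cells, and without WT_CD3 replicate 1 (0.0745), 2 (0.12) or 4 (0.054) or WT_CD3CD28 replicate 3 (0.0854) or 4 (0.0809) in wild-type cells. Gabpa, an ETS factor known to act on respiratory genes, rose by 0.28 (adjusted p = 0.00962) and 0.29 (adjusted p = 0.00984). Both Gabpa calls were lost after quantile normalization (adjusted p = 0.396 in knockout and 0.0704 in wild-type cells) and with replicates 3 and 4 alone (0.426 and 0.347). The coactivator Pprc1 rose by 0.83 in knockout cells (adjusted p = 0.00211). In wild-type cells Pprc1 had 0.50 (adjusted p = 0.0551, or 0.00221 with the replicate block). Nrf1 had 0.00 in knockout and 0.25 in wild-type cells and was not called in either, although with the block its wild-type difference was (adjusted p = 0.0302). Of the genes encoded by mitochondrial DNA, COX2 and ND3 were tested, with differences of -0.17 and 0.06 in knockout and -0.03 and 0.05 in wild-type cells, and neither was called.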

How the data were processed

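Per the submitters' processing notes, the authors deposited log2 signals from RMA, a method of background correction, quantile normalization and summary per probe set. The file holds 35556 probes on 16 arrays, with values from 1.84 to 13.99. No genome build of the array is given in the sources used here. The series' probe table names 23410 probes, 21789 with 1 gene symbol and 1621 with several, which were left out. Probes above the 25th percentile of an array in 4 or more arrays were kept, and of several probes of a gene the one with the highest mean was used, which left 16427 genes.

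One mean per group was fitted over all 16 arrays with limma 3.58.1 under R 4.3.3 (12 residual degrees of freedom, 4.92 prior), and p-values were Benjamini-Hochberg adjusted over all genes. A call is an adjusted p under 0.05. The code was tested on simulated data. Summaries and figures used Python 3.11.15, pandas 2.3.3, numpy 2.4.6 and matplotlib 3.10.9.

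Same-numbered arrays deviated together from their group means over all genes (correlation of 0.217 to 0.515 for the CD28 effect in knockout cells, 0.157 to 0.369 in wild-type cells, 0.201 to 0.586 between genotypes with anti-CD28 and 0.181 to 0.453 without). Over the members the correlations were 0.234 to 0.721, -0.024 to 0.542, -0.399 to 0.796 and 0.184 to 0.465 in the same order, each lowest at replicate 3. Differently numbered arrays were not compared. Same-numbered knockout and wild-type arrays differed in Xist for replicates 1, 2 and 4, so whether the numbers pair arrays across genotypes is not known. A fit with the number as a block is given as an alternative beside results it changes. The alternatives were 2 other scalings, 2 filters, other treatments of probes, variance and array weights, the groups compared alone, the block, the number nested in genotype as a random block (duplicateCorrelation), the Xist level as a covariate, replicates 1 and 2 or 3 and 4 alone, and leaving out each array.

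Named genes are the 5 members called in each direction with the smallest p and no overlap per comparison, 2 with the smallest p where none was called, the 3 called genes of each other list with the smallest p in each direction, and panels of members and partners. The members, panels and lists were chosen with earlier results of these data known.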

Additional observations from a re-analysis of the deposited data

Results flagged for a closer look

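WT_CD3CD28 replicate 4 lay apart from the other 3 arrays of its group by Dixon's test in the mean deviation of the members, -0.146 against 0.144 to 0.188. In single genes it was the low array for Ndufv1 (9.31, others 10.15 to 10.31), Ndufa4 (11.72, others 11.89 to 11.91), Sdhd (9.51, others 10.30 to 10.42), Uqcrc1 (8.66, others 9.42 to 9.53), Cox4i1 (10.69, others 11.60 to 11.70) and Cox5b (11.22, others 11.47 to 11.51). It was also low for the ATP synthase genes Atp5a1 (11.95, others 12.24 to 12.29), Atp5d (9.73, others 11.13 to 11.29), Atp5g1 (9.33, others 10.56 to 10.72) and Atp5g2 (11.05, others 12.03 to 12.18), and for the ubiquinone synthesis gene Coq7 (8.21, others 8.78 to 8.88). It was the high array for Tfb1m (9.76, others 9.21 to 9.27) and Cox6a2 (7.36, others 7.24 to 7.25). Elsewhere, Sdhb was low on WT_CD3 replicate 4 (9.08, others 9.23 to 9.26), Atp5b on KO_CD3 replicate 4 (12.05, others 12.30 to 12.31) and Slc25a5 on WT_CD3CD28 replicate 1 (12.67, others 12.80 to 12.82), and Cox4i2 was high on KO_CD3CD28 replicate 4 (7.37, others 7.08 to 7.12). These are 18 of 284 groups of arrays, 6.34%, where chance gives about 1 in 20 for independent tests. Most of the 18 fall on WT_CD3CD28 replicate 4, and genes on the same array are not independent. The pooled share therefore cannot tell whether that array departs from chance. The check covered the named genes and the mean deviation alone. Of all members, 55 were lowest of their group on that array and 10 highest. Ndufb7 (9.03), Ndufs8 (8.31) and Uqcr11 (7.45) were among the lowest there and were not checked.

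The mean genotype difference had opposite signs by stimulus in many members: in 58 it was above 0 with anti-CD3 plus anti-CD28 and below 0 with anti-CD3, and in 1 the reverse. The joint count was not made over all genes. Taken singly, 55.6% of all genes were above 0 with both antibodies and 44.6% below 0 with anti-CD3. Relative to all genes, the members' median with both antibodies was 0.0 without WT_CD3CD28 replicate 4, against 0.09 with it. A check of single pairs covered the named genes alone. It set Ndufb2 and Ndufaf2 apart because all 4 same-numbered pairs of arrays showed the opposed signs. Ndufb11, which was not in that check, showed them too. It had 11.13, 11.00, 11.26 and 11.15 on KO_CD3CD28 and 11.01, 10.91, 11.11 and 11.00 on WT_CD3CD28 arrays. With anti-CD3 it had 11.01, 10.76, 11.19 and 10.91 on KO_CD3 and 11.15, 11.12, 11.25 and 11.13 on WT_CD3 arrays. Ndufb2 differed by 0.26 with anti-CD3 plus anti-CD28 and by -0.31 with anti-CD3, and Ndufaf2 by 0.16 and -0.37. Neither interaction was called (limma, adjusted p = 0.905 for Ndufb2 and for Ndufaf2).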

How the results depend on the processing

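No call of a member reversed its direction under any alternative. The median difference of the members with CD28 in knockout cells was 0.56 with arrays centred on their median, 0.26 after quantile normalization and 0.57 with replicates 1 and 2 alone, against 0.43. Replicates 3 and 4 alone called 16 members there, against 50. In wild-type cells the median of 0.14 became 0.08 after quantile normalization and 0.04 with replicates 3 and 4 alone, and the 22 calls became 37 with array weights, 37 with replicates 1 and 2 alone and 3 with replicates 3 and 4 alone. In these 3 fits, in the same order, 20.9%, 21.1% and 8.85% of all genes rose and 19.0%, 15.1% and 7.28% fell. For the genotype under anti-CD3, where 0 members were called, 3 were called with centred arrays, 5 with array weights, 10 with the replicate block, 0 with the block nested in genotype as a random term, 0 with Xist as a covariate, 0 after quantile normalization and 22 with replicates 1 and 2 alone, and the median was -0.06 with replicates 3 and 4 alone. All these calls were lower in knockout cells. Of all genes, 1.51% were lower and 0.0791% higher with centred arrays, and 2.51% and 1.13% with array weights. The shares were 6.56% and 5.34% with the replicate block, and 6.57% and 1.87% with replicates 1 and 2 alone. The replicate block gave 55 calls in knockout cells, where 23.3% of all genes rose and 22.0% fell. It gave 31 in wild-type cells, where 18.8% rose and 16.5% fell, and lost no call. Beside the calls given with their block values above, it added those of Atp5c1 (adjusted p = 0.0169) and Ndufb7 (0.02) with CD28 in knockout cells, and of Ndufc1 (0.0223), Ndufc2 (0.047), Ndufv2 (0.0272), Ndufv3 (lower, 0.0451) and Coq10a (lower, 0.0224) in wild-type cells. Under anti-CD3 it added, lower in knockout cells, Ndufb7 (0.034), Ndufb8 (0.0331), Ndufs8 (0.0246), Uqcrq (0.0357), Coq2 (0.0468), Coq7 (0.0474), Cyc1 (0.0247), Ndufaf2 (0.0436), Ndufaf6 (0.0418) and Vdac1 (0.0141). It changed no other call of a member or named gene.

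When each array was left out in turn, the members called with CD28 numbered 42 to 55 in knockout and 9 to 27 in wild-type cells, with medians of 0.37 to 0.48 and 0.09 to 0.23. For the genotype, 0 to 3 were called with anti-CD3 alone (median -0.24 to -0.10) and 0 to 0 with both antibodies (median 0.03 to 0.12). The interaction gave 0 to 0 (median 0.19 to 0.33). The remaining settings left these counts within 1.5 times their values. Cox7b2, dim on every array, could not be tested under the filter used.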
